A study of Mus musculus with 15 samples.

Results

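The 9 genes described here encode core enzymes of the tricarboxylic acid cycle, namely Cs, Idh3a, Idh3b, Ogdh, Dlst, Suclg1, Sdha, Fh1 and Mdh2. They were taken from a list of symbols and matched to Ensembl identifiers, and the rule used no measured value, although results of these data were known when the list was made. They are 9 of the 55450 genes counted, and 9 of 9 were among the 16920 genes that passed the filter on low counts and were tested. RNA sequencing profiled the gastrocnemius of 15 C57BL/6JN mice, all female and aged over 17 months, with 1 library per mouse. Mice with no more than 1 of 5 possible frailty markers formed the Low group (named robust in the labels) and those with at least 2 markers the High group (named frail). No mouse carried an engineered allele according to the sources, and the frailty groups divide naturally aged mice of a single strain by their scores. Control mice stayed sedentary in their cages (Low Control, mice D8, D9, D11 and D98, and High Control, mice D23, D25 and D67). Run mice performed 2 bouts of downhill treadmill running with a top speed of 13 m/min and a slope of 22 degrees, and their tissue was taken 24 h afterwards (Low Run, mice D57, D61, D66 and D68, and High Run, mice D49, D52, D53 and D62).

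The cycle runs in the mitochondrial matrix, where acetyl-CoA from pyruvate and fatty acids is condensed with oxaloacetate and oxidized stepwise to carbon dioxide. The electrons removed pass to NADH and, at succinate dehydrogenase, to ubiquinone, and so feed the respiratory chain. In skeletal muscle, transcripts of these enzymes are abundant in oxidative fibres, and citrate synthase activity is a common measure of mitochondrial content.

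The genes lie on 9 different chromosomes (GENCODE M21 on GRCm38, the mm10 assembly). Cs is at chr10:128337734-128362479 and Idh3a at chr9:54586334-54604661, both on the plus strand, and Idh3b is at chr2:130279309-130284547 on the minus strand. Ogdh is at chr11:6291633-6356642, Dlst at chr12:85110833-85134845 and Suclg1 at chr6:73248382-73276911, all on the plus strand. Sdha is at chr13:74322254-74350280 and Fh1 at chr1:175600374-175625635, both on the minus strand, and Mdh2 is at chr5:135778480-135790398 on the plus strand.

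Of 8 genes with an entry in the RefSeq promoter table (Idh3a had none), Ogdh and Mdh2 held the palindromic cAMP response element TGACGTCA in the 250 bases before a RefSeq start. These stretches are shown because Ogdh and Mdh2 were the only members with a motif match. The capitals mark the element, both stretches are on the plus strand of GRCm38.p6, and the sequences are from RefSeq.
Ogdh, chr11:6291347-6291596: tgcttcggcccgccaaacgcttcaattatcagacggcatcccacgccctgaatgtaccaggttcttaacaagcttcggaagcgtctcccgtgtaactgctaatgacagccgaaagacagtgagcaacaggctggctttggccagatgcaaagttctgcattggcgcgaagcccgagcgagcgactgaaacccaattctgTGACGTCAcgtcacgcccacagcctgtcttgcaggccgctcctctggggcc
Mdh2, chr5:135778511-135778540: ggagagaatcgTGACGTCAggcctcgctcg
The element lay 51 to 44 bases before the RefSeq start of Ogdh whose window is shown, and 127 to 120 bases before that of Mdh2. Ogdh had 6 windows and Mdh2 had 1, and the Ogdh window shown is the most upstream that holds the element. Bases shortly after the start matched a GENCODE M21 transcript of the gene in 2 of the 6 Ogdh windows and in the Mdh2 window. The annotations place the Mdh2 start differently, and the stretch shown lies inside the gene as GENCODE M21 gives it. The element was present in at least 1 window of 1.77% of the 27025 genes in the promoter table, and in 1.55% of all 32851 windows of the same length. The other motifs, searched on both strands, were in 0 of the 8 members. They were the oestrogen-related receptor element TNAAGGTCA (1.3% of genes), the NRF-1 palindrome GCGCATGCGC (0.877%), the extended GABPA core CCGGAAG (7.83%) and the MEF2 site CTANNNNTAG (3.7%). None of the 5 motifs contains another, and a match is a run of letters, not evidence of binding.

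The libraries held between 19395125 and 30699216 counts per mouse, and the members between 5186 counts (Suclg1) and 32595 counts (Ogdh) per mouse. The tissue label was checked with muscle markers, and the summed level of Acta1, Ckm, Mb, Des and Tnnt3 was between 70020 and 111200 CPM (counts scaled to a common library size, with TMM factors). Of 3 genes of other tissues, Gfap of brain was at 0 in 8 of 15 mice and at most 0.216 CPM, while Alb of liver (0.329 to 6.68 CPM) and Myh6 of heart (0.631 to 6.74 CPM) were low but above 0 in every mouse. D9 (Low Control) held the lowest value of the 15 mice in 20.8% and the highest in 22.7% of all tested genes, and D62 (High Run) in 11.7% and 10.8%. Values per mouse are given in the order in which the mice are named above. Bulk RNA averages over all cells of the tissue, so that fewer cells of a type and less RNA per cell cannot be told apart.

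Across members, levels can be compared only per length. On the scale of CPM per kilobase of the union of exons, Sdha (222 ± 23.4, SD, n = 15) and Mdh2 (221 ± 29.1) had the highest levels and Dlst (32.6 ± 3.36) the lowest. Ogdh (181 ± 26.3), Idh3b (148 ± 16.9), Cs (145 ± 17.2) and Idh3a (134 ± 22.4) lay between, followed by Fh1 (73.3 ± 8.47) and Suclg1 (58.5 ± 8.51). The order Sdha above Mdh2 held in only 8 of 15 mice and Idh3b above Cs in 8 of 15, so these neighbours did not differ beyond their spread, whereas Idh3a above Fh1, Fh1 above Suclg1 and Suclg1 above Dlst held in 15 of 15. With the longest transcript as the length, Mdh2 was the highest with 23.1% of the summed level of the 9 genes (18.2% with the union of exons), Ogdh moved to the sixth place and Fh1 to the last, so the order depends on the gene model.

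**Figure D1:**
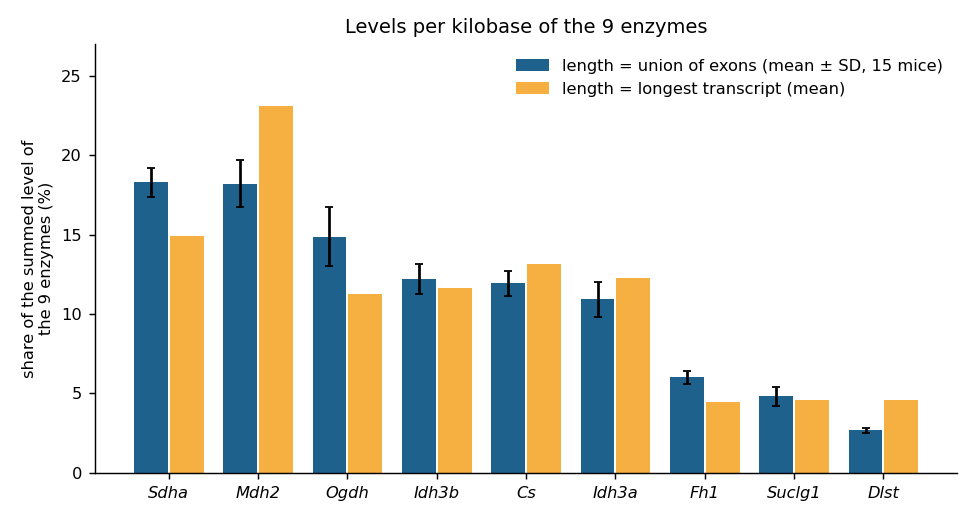
Share of the summed level per kilobase taken by each of the 9 enzymes (y axis, percent), with length as the union of exons (blue, mean ± SD over 15 mice) or as the longest transcript (orange, mean). Sdha and Mdh2 had 18.3% and 18.2% with the first length, and Dlst had 2.69% with the first and 4.57% with the second.

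Cs encodes citrate synthase, which joins acetyl-CoA to oxaloacetate. Its level was 855, 769, 864 and 851 CPM in Low Control and 676, 871, 903 and 872 CPM in Low Run. In High Control it was 911, 900 and 913 CPM, and in High Run 931, 941, 708 and 619 CPM. High Control lay within a narrow band that was above every Low Control mouse, while High Run held both the highest and the lowest values of all mice. The fitted log2 fold change was -0.01 ± 0.15 (SE) with running in Low mice (0.08 without D57) and -0.18 ± 0.16 in High mice (-0.08 without D62).

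Idh3a encodes the catalytic alpha subunit of NAD-dependent isocitrate dehydrogenase, which releases the first carbon dioxide of the cycle. It was measured at 741, 550, 707 and 676 CPM in Low Control and 621, 737, 704 and 753 CPM in Low Run. In High Control it was 803, 713 and 823 CPM, and in High Run 708, 634, 631 and 356 CPM. All 4 High Run mice lay below all 3 High Control mice, with D49 (708 CPM) close beneath the lowest control (713 CPM) and D62 far beneath it. The group means were 780 ± 58.4 CPM (SD, n = 3) and 582 ± 155 CPM (SD, n = 4). The log2 fold change in High mice was -0.42 ± 0.19 (95% interval -0.83 to -0.02), with an unadjusted p of 0.0422 and an adjusted p of 0.956 by edgeR's quasi-likelihood test over all genes. Without D62 it was -0.25. In Low mice it was 0.07 ± 0.18, and -0.02 without D9.

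Idh3b encodes the beta subunit of that enzyme, which has a regulatory and structural role. It stood at 532, 481, 489 and 458 CPM in Low Control and 492, 519, 494 and 598 CPM in Low Run. Among sedentary High mice it was 576, 502 and 527 CPM, and in High Run 450, 492, 608 and 383 CPM. High Run again spanned the whole range, with the highest value in D53 and the lowest in D62. The log2 ratio of Idh3a to Idh3b CPM was 0.48 to 0.64 in High Control and was 0.65 in D49, 0.36 in D52, 0.05 in D53 and -0.10 in D62. It was 0.19 in D9 of Low Control and 0.33 and 0.34 in D68 and D57 of Low Run, so low ratios were found in other groups too, with the lowest in D53 and D62. The log2 fold change of Idh3b was 0.10 ± 0.14 in Low mice (0.03 without D68) and -0.15 ± 0.15 in High mice (-0.06 without D62 and -0.28 without D53).

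Ogdh encodes the oxoglutarate-decarboxylating subunit of the oxoglutarate dehydrogenase complex. Its level was 1060, 1102, 1067 and 983 CPM in Low Control and 652, 1039, 1023 and 879 CPM in Low Run. High Control mice had 1130, 1060 and 1015 CPM, and High Run mice 1056, 1134, 774 and 796 CPM. D57 and D68 (Low Run) and D53 and D62 (High Run) were below all 7 control mice, D52 (High Run) was the highest of all mice, and the other run mice lay among the controls. The log2 fold change was -0.23 ± 0.16 in Low mice (-0.10 without D57) and -0.19 ± 0.17 in High mice (-0.12 without D62 and -0.10 without D53).

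Dlst encodes the succinyl-transferring subunit of the same complex. It was measured at 296, 265, 327 and 307 CPM in Low Control and 263, 322, 341 and 352 CPM in Low Run. The High Control values were 313, 324 and 340 CPM, and those of High Run were 326, 343, 317 and 244 CPM. The groups overlapped in every comparison, and 3 of 4 High Run mice lay inside or close to the range of High Control. The log2 fold change was 0.10 ± 0.13 in Low mice (0.04 without D9 and 0.18 without D57) and -0.08 ± 0.14 in High mice (0.01 without D62).

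Suclg1 encodes the alpha subunit shared by the ATP-forming and GTP-forming succinyl-CoA ligases. It stood at 262, 215, 249 and 249 CPM in Low Control and 293, 270, 268 and 339 CPM in Low Run. High Control mice had 285, 282 and 300 CPM, and High Run mice 246, 255, 342 and 198 CPM. All 4 Low Run mice and all 3 High Control mice lay above all 4 Low Control mice, while High Run was split, with D53 the highest of all mice and the other 3 below High Control. The log2 fold change in Low mice was 0.26 ± 0.15 (95% interval -0.06 to 0.58; unadjusted p = 0.0996, adjusted p = 0.42), and in High mice it was -0.15 ± 0.16. Without D68 the estimate in Low mice was 0.17, and in High mice it was -0.05 without D62 and -0.31 without D53.

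Sdha encodes the flavoprotein of succinate dehydrogenase, which is also complex II of the respiratory chain. Its level was 923, 939, 922 and 863 CPM in Low Control and 730, 967, 955 and 940 CPM in Low Run. In High Control it was 994, 997 and 984 CPM, and in High Run 977, 1006, 882 and 677 CPM. High Control varied little (coefficient of variation 0.673%) and lay above all Low Control mice. In Low Run 3 mice were above the highest Low Control mouse and D57 was below the lowest, and the log2 fold change was -0.02 ± 0.14 in Low mice (0.06 without D57) and -0.16 ± 0.15 in High mice (-0.06 without D62).

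Fh1 encodes fumarase, which hydrates fumarate to malate. It was measured at 252, 222, 237 and 230 CPM in Low Control and 242, 242, 248 and 308 CPM in Low Run. The High Control values were 280, 267 and 265 CPM, and those of High Run were 232, 242, 276 and 185 CPM. High Control lay above all Low Control mice, and in High Run 3 of 4 mice lay below High Control with D53 inside it. Fitted log2 fold changes were 0.14 ± 0.13 in Low mice (0.04 without D68) and -0.21 ± 0.14 in High mice (-0.12 without D62).

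Mdh2 encodes mitochondrial malate dehydrogenase, which restores oxaloacetate. It stood at 784, 628, 818 and 697 CPM in Low Control and 762, 809, 840 and 918 CPM in Low Run. Among sedentary High mice it was 907, 784 and 868 CPM, and in High Run 737, 746, 952 and 580 CPM. The pattern was close to that of Suclg1, with D53 the highest and D62 the lowest of all mice and the other High Run mice below High Control. The log2 fold change was 0.19 ± 0.15 in Low mice (0.11 without D9) and -0.18 ± 0.16 in High mice (-0.08 without D62 and -0.31 without D53).

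**Figure D2:**
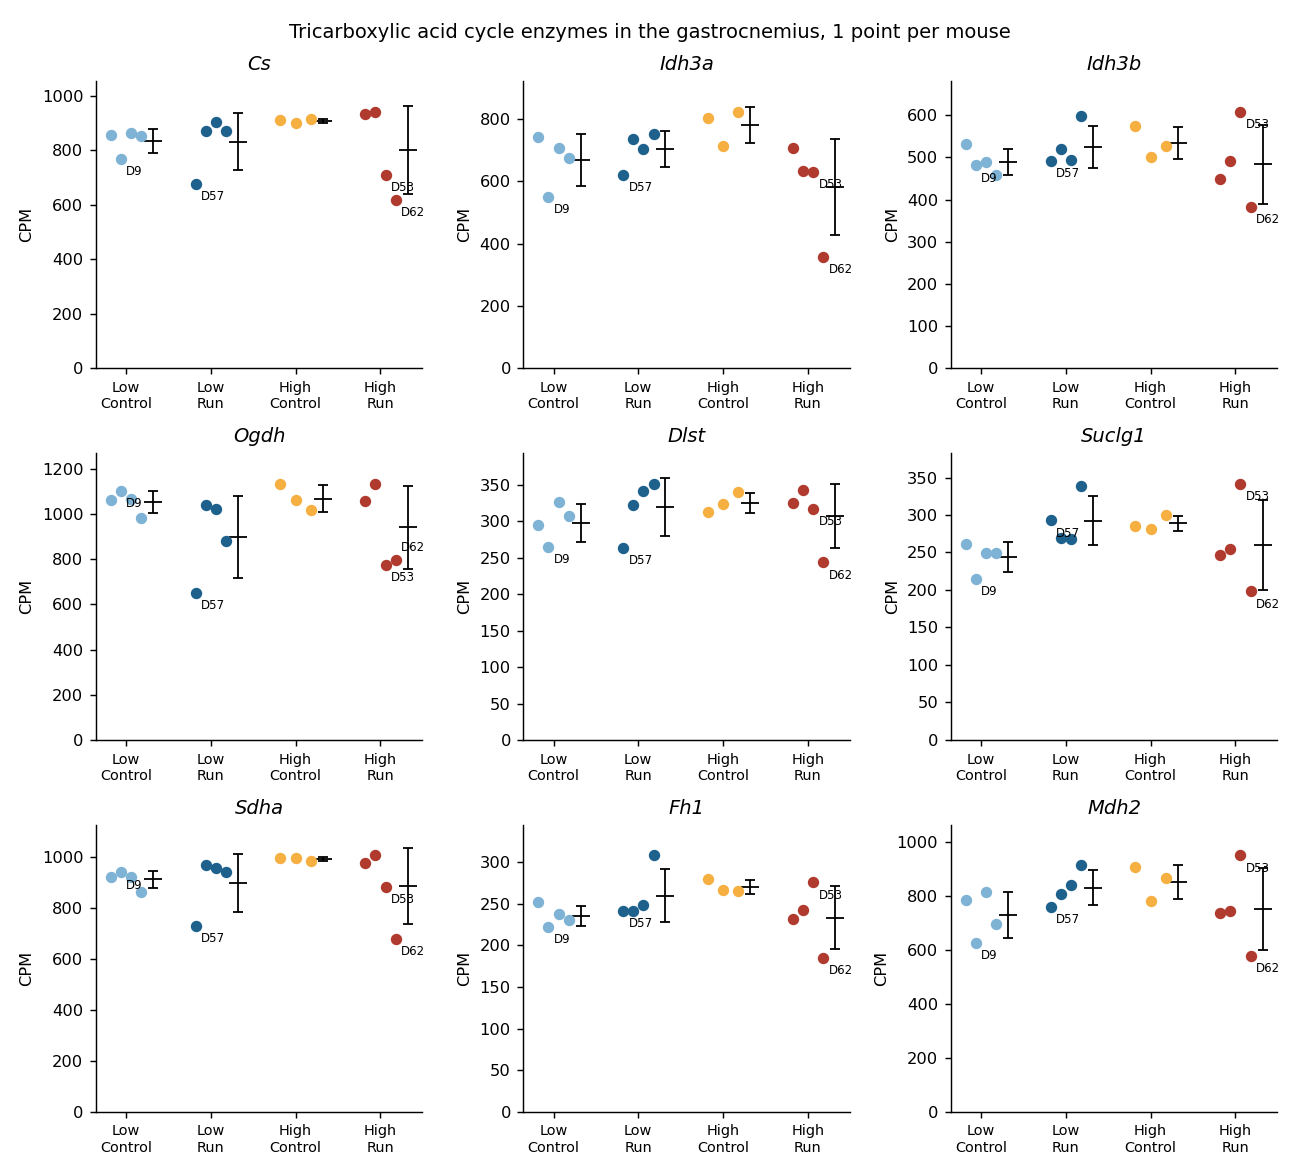
Level of each enzyme in CPM (y axis from 0) by group, with 1 point per mouse and the group mean ± SD in black (n = 3 in High Control and 4 in each other group). High Control is narrow in most panels, High Run is wide, and D62 is the lowest of the 15 mice in 8 of 9 panels.

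The mice of a group did not vary by the same amount. The median coefficient of variation over the 9 members was 4.21% in High Control, 6.28% in Low Control, 12.4% in Low Run and 19.6% in High Run. It was 15.0% in High Run without D62, 6.55% in Low Run without D57 and 4.57% in Low Control without D9. Over all tested genes and with all mice kept, the medians were 12.7%, 23.7%, 18.7% and 24.2%, in the same order of groups. The members varied less than the median gene in each group, but those genes were not matched to them by level, and the part of level was not tested. The larger spread of the run groups over their controls was not seen in Low mice over all genes, where D9 was kept and no median without it was computed. In D62 all 9 members lay below their mean over the 15 mice, by 0.45 on average on the log2 scale, from 0.29 lower for Ogdh to 0.90 lower for Idh3a. D53 of the same group had 5 members above and 4 below the mean, from -0.33 for Ogdh to 0.35 for Suclg1. D57 had 8 members below the mean, with Ogdh at -0.58 and Suclg1 at 0.13, and D68 had 8 above, with Ogdh at -0.15 and Suclg1 at 0.34. D23 and D67 of High Control had 9 of 9 members above the mean.

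**Figure D3:**
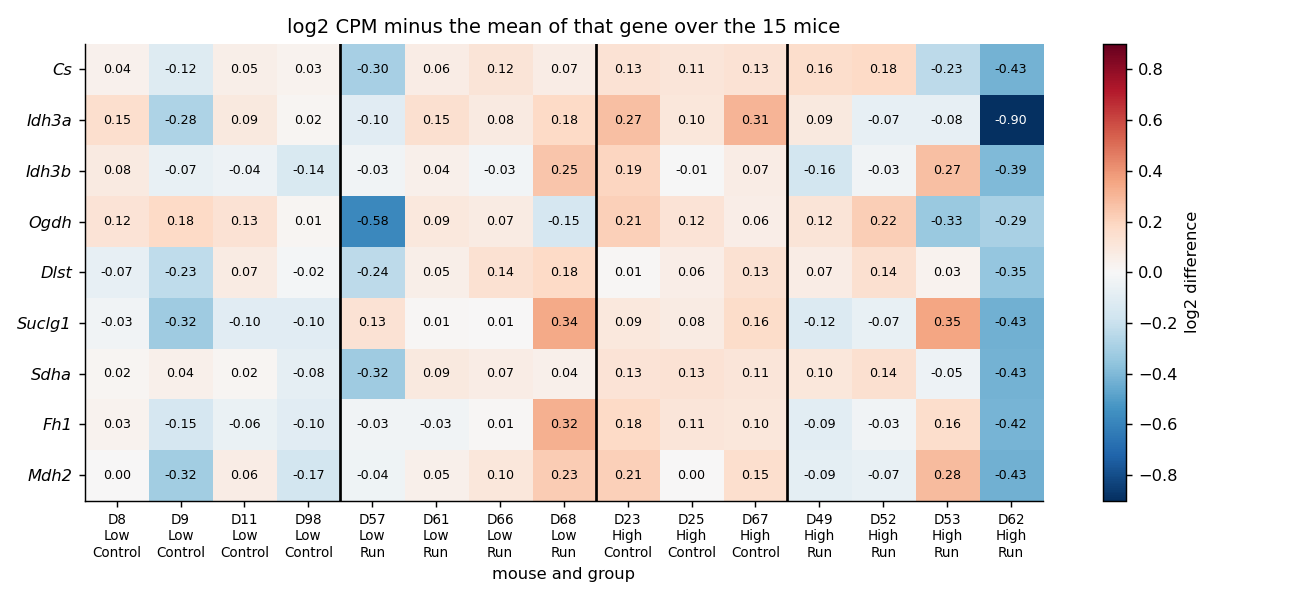
Difference of each member's log2 CPM from its mean over the 15 mice (colour and printed value), with members in rows and mice in columns ordered by group. D62 is below the mean for 9 of 9 members, whereas in D53, D57 and D68 Ogdh is below it and Suclg1 above it.

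Of the fibre type lists, only the summed level of type IIb did not overlap between run and control mice. The summed level of the type IIb and fast glycolytic markers Myh4, Actn3, Mylk2 and Pvalb (4 of 4 tested) was 63500 to 93130 CPM in Low Control and 48470 to 63310 CPM in Low Run, and 71250 to 83050 CPM in High Control and 51640 to 63460 CPM in High Run. Run and control mice thus did not overlap in either frailty group, though in Low mice D66 (63310 CPM) was close beneath D11 (63500 CPM). The sum was mostly Myh4, with a median of 48770 CPM beside 9859 for Actn3, 6293 for Pvalb and 957 for Mylk2. Single genes lower in run mice without overlap made up 3.59% of all tested genes in Low and 3.6% in High mice. The other fibre lists overlapped in both frailty groups. The type I list (6 of 6 tested) was 2048 to 3040 CPM in Low Control, 1918 to 3641 in Low Run, 1658 to 2482 in High Control and 1944 to 4380 in High Run, highest in D62. The type IIa gene Myh2 was 1915 to 2854, 1457 to 4557, 1861 to 2583 and 2020 to 4171 CPM in the same order, and the type IIx gene Myh1 3027 to 4096, 2439 to 4918, 3654 to 3934 and 2302 to 4810 CPM. The endothelial list (4 of 4) was 182.9 to 212 CPM in High Control and 163 to 243 CPM in High Run, and the macrophage list (6 of 6) 44.9 to 74.3 CPM and 63.2 to 147 CPM. The neutrophil list (4 of 4) summed to 395.5 CPM in D68 and to at most 53.6 CPM in the other mice, with Ly6g at 0 in 6 mice and S100a8, S100a9 and Retnlg above 0 in every mouse. D62 also had the highest Schwann cell sum of the 15 mice (283.5 CPM) and the lowest fibroblast sum (586.8 CPM). Its erythroid sum (1335 CPM) ranked 3 and its adipocyte sum (139.4 CPM) ranked 7 from the highest. The part of these differences in the levels of the cycle enzymes was not tested.

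Frailty without running was addressed by High Control against Low Control. The fitted level was higher in High Control for 9 of 9 members, with a median log2 fold change of 0.13 against -0.02 over all tested genes, of which 47.2% had a positive sign. The estimates ran from 0.02 for Ogdh to 0.24 for Suclg1. The mice of both groups did not overlap for Cs, Suclg1, Sdha and Fh1, each higher in High Control. This is 4 of 9 members beside 5.13% of all tested genes higher and 5.27% lower without overlap. The members vary together across mice (r = 0.908 between Cs and Sdha). Counts of members, here and in the following comparisons, are therefore not independent observations, and the shares of all genes do not measure an enrichment. At an FDR of 0.1 the test called 0 of 9 members and 0% of the 16920 genes (992 genes had an unadjusted p under 0.05, and DESeq2 called 0), and the adjusted p of the members were at least 0.704. Without D9 the same 4 members did not overlap (6.67% of all genes higher), and the median log2 fold change was 0.13.

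Running in Low mice was addressed by Low Run against Low Control. Of the members, 6 had a positive and 3 (Cs, Ogdh and Sdha) a negative log2 fold change, though Cs was at 0.03 with length and GC offsets. The median was 0.10 against 0.02 over all tested genes, of which 51.9% had a positive sign. Suclg1 was the only member without overlap between groups, higher in Low Run (1 of 9, beside 3.35% of all genes higher and 3.59% lower). At an FDR of 0.1, 0 of 9 members and 0% of all genes were called by edgeR (2274 genes had an unadjusted p under 0.05, 0 of them members, and DESeq2 called 10 genes). Leaving out D57 left 3 members without overlap, Cs, Suclg1 and Sdha, all higher in Low Run, beside 4.62% of all genes. D57 was chosen after the values were seen and was the lowest Low Run mouse for Cs and Sdha. The share of all genes is thus not a matched background, and Sdha separated narrowly (939.7 CPM in D68, 939.4 CPM in D9). The median log2 fold change was 0.03 without D68 and 0.04 without D9 and D62.

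Running in High mice was addressed by High Run against High Control. Here 9 of 9 members had a negative log2 fold change, from -0.08 for Dlst (0.0065 with voom) to -0.42 for Idh3a. Their median was -0.18, while the median over all tested genes was 0.05 and 42.8% of them were negative. The 9 signs are not independent, since the members vary together across mice. Idh3a was the only member without overlap, lower in High Run (1 of 9, beside 3.6% of all genes lower and 3.47% higher), and the only member with an unadjusted p under 0.05 (beside 1.9% of all genes that were lower at this p). At an FDR of 0.1 edgeR called 0 of 9 members and 0% of all genes (877 genes had an unadjusted p under 0.05, and DESeq2 called 15). The size of these differences rested on the High Run mice that stood apart. The median was -0.08 without D62 and -0.28 without D53. Without D53 the members lower without overlap were Idh3a, Idh3b, Suclg1, Fh1 and Mdh2, beside 8.2% of all genes. D53 was left out after the values were seen, and it lay inside or above High Control for Idh3b, Suclg1, Fh1 and Mdh2. Their separation follows from that choice, so the share of all genes is not a matched background. This comparison and the one without running share the High Control mice, whose level enters both with opposite sign.

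The Frailty × Run interaction asked whether the running difference was the same in both frailty groups. The estimate was negative for 8 of 9 members (and for Ogdh too, at -0.07, with length and GC offsets), with a median of -0.25 against 0.03 over all tested genes (46.9% negative). By unadjusted p the first were Idh3a (-0.50 ± 0.26), Suclg1 (-0.41 ± 0.22) and Fh1 (-0.36 ± 0.19), with unadjusted p = 0.0756, 0.0798 and 0.0844 in this order and an adjusted p of 0.6 each by edgeR. Ogdh was the exception with 0.04 ± 0.24 (95% interval -0.46 to 0.55). At an FDR of 0.1, 0 of 9 members and 0% of all genes were called (1342 genes had an unadjusted p under 0.05, and DESeq2 called 0), so a different response of the members was not shown. The median was -0.15 without D62 and -0.38 without D53.

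Among mice that ran, High Run against Low Run gave a negative log2 fold change for 8 of 9 members. The median was -0.12 against 0.01 over all tested genes, of which 47.8% had a negative sign. Idh3a had the lowest estimate (-0.27 ± 0.18) and Ogdh was positive (0.07 ± 0.16). The groups overlapped for 9 of 9 members, beside 0.721% of all genes higher and 0.774% lower without overlap. Without D53, Suclg1 and Mdh2 were lower in High Run without overlap (2 of 9, beside 3.75% of all genes). D53 was the highest of all mice for both and was left out after the values were seen, so this share is not a matched background. At an FDR of 0.1, 0 of 9 members and 0% of all genes were called by edgeR (424 genes had an unadjusted p under 0.05, and DESeq2 called 0). The median was -0.03 without D62 and -0.24 without D53. Without D62 the estimates of Cs, Dlst and Sdha were positive (0.05, 0.03 and 0.08), and without D57 that of Ogdh was negative (-0.06).

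**Figure D4:**
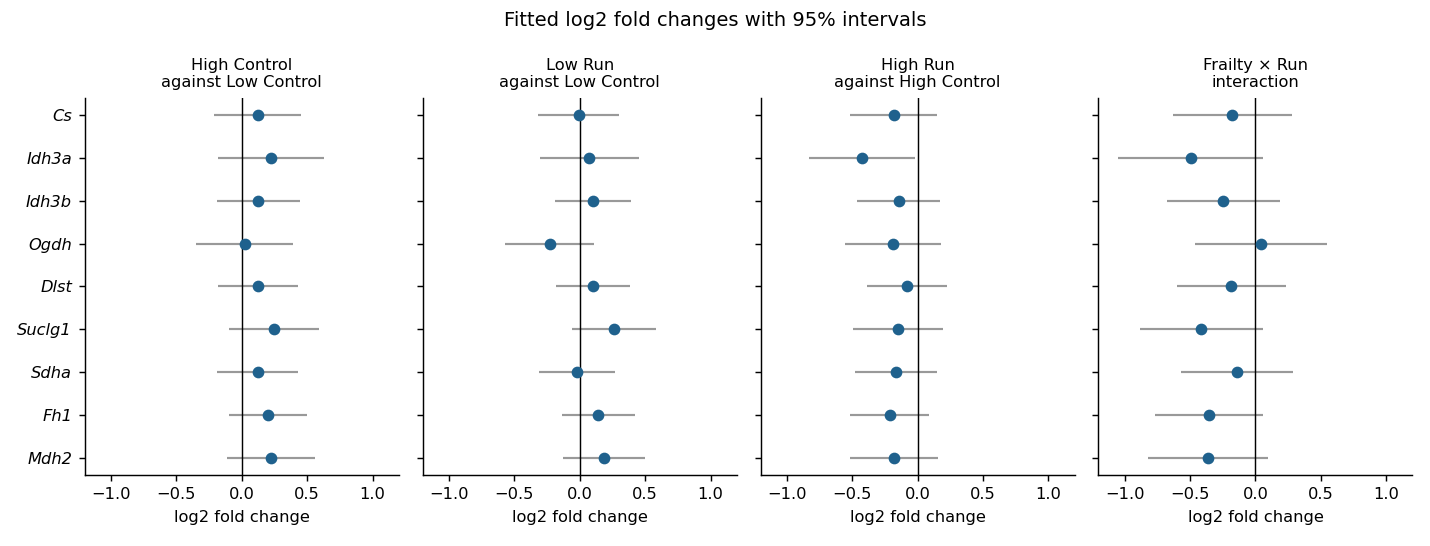
Fitted log2 fold change (x axis) of each member with its 95% interval (line) in 4 comparisons, from a model of all 15 mice. The interval of Idh3a in High Run against High Control (-0.83 to -0.02) is the only one of the 36 shown that does not reach 0, before any adjustment for the number of genes tested.

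The precision of these estimates sets what could be seen. The standard errors of the members were 0.13 to 0.18 in Low mice and 0.14 to 0.19 in High mice on the log2 scale, so that the 95% intervals in High mice allowed values from 0.83 lower (Idh3a) to 0.22 higher (Dlst). In Low mice the intervals ran from 0.57 lower (Ogdh) to 0.58 higher (Suclg1). An estimate whose interval reaches 0 does not show that the level was the same in both groups.

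The ratio of Ogdh to Suclg1, neighbouring steps of the cycle, was examined after the values were seen and is given without a test. These members had the lowest and the highest log2 fold change with running in Low mice (-0.23 and 0.26). A difference in their ratio between these groups thus follows in part from the choice of the pair. The log2 CPM ratio of Ogdh to Suclg1 was 2.02, 2.36, 2.10 and 1.98 in Low Control. In Low Run it was 1.15, 1.95, 1.93 and 1.37, and these groups did not overlap. In High Control it was 1.99, 1.91 and 1.76, and in High Run 2.10, 2.15, 1.18 and 2.00. Ogdh counts were thus low beside those of Suclg1 in D57, D68 and D53. The same 3 mice had the lowest ratios of Sdha to Sdhb, the iron-sulfur subunit of the same complex, at 0.93, 0.83 and 0.73 on the log2 scale, where the other 12 mice had 1.10 to 1.76. In D62, with the lowest level of 8 members, the Ogdh to Suclg1 ratio was within the range of the controls. The log2 ratio of Ogdh to Dlst overlapped between Low Control (1.68 to 2.06) and Low Run (1.31 to 1.69). The share of all gene pairs whose ratio does not overlap was not computed.

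**Figure D5:**
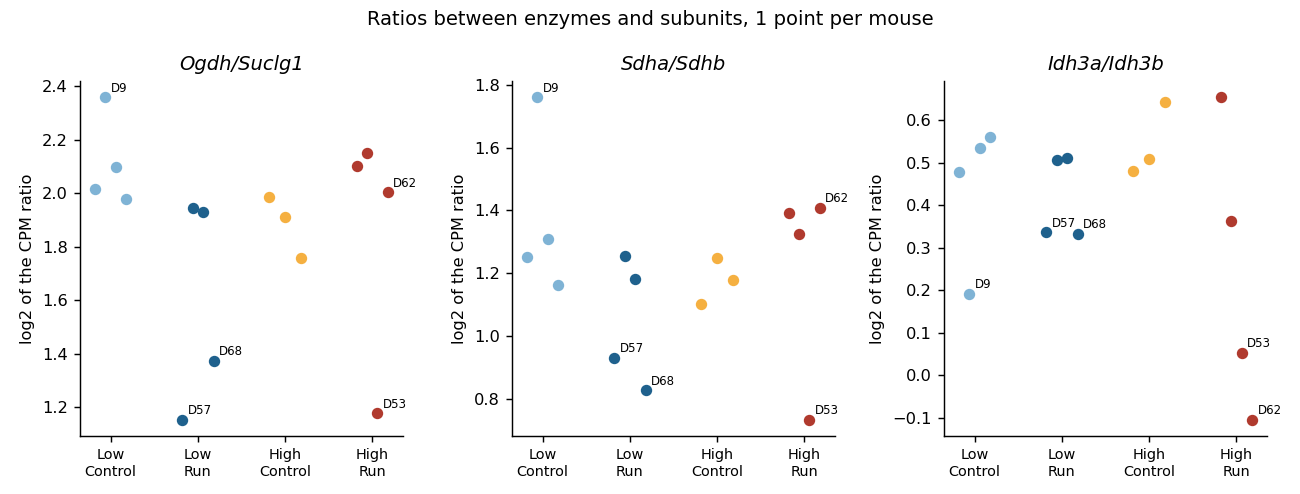
log2 of the CPM ratio (y axis, not starting at 0) of Ogdh to Suclg1, Sdha to Sdhb and Idh3a to Idh3b, with 1 point per mouse and named mice marked. D57, D68 and D53 are the 3 lowest mice in the first and second panels, and D62 is the lowest in the third at -0.10.

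The other 14 subunits and isoenzymes of the cycle gave a similar count of signs. In High mice 11 of 14 had a negative log2 fold change with running and a median of -0.13, in Low mice 9 of 14 a positive one and a median of 0.06, and 12 of 14 were higher in High Control than in Low Control, with 0 of 14 called in any of the 5 comparisons. Between High Run and High Control, 4 of the 14 were lower without overlap, beside 3.6% of all genes. One of them was Suclg2, the GTP-forming beta subunit that partners Suclg1, at 58.9 to 66.2 CPM in High Control and 46.6 to 54.5 CPM in High Run (log2 fold change -0.29 ± 0.11, unadjusted p = 0.0172, adjusted p = 0.956 by edgeR). Sucla2, the ATP-forming beta subunit, was 533 to 580 CPM and 324 to 555 CPM in these groups. Mrps36, which encodes a small protein that links the oxoglutarate dehydrogenase subunits, had the most negative interaction estimate of the 14 (-0.90 ± 0.29, unadjusted p = 0.00687, adjusted p = 0.6), at 4.97 to 9.26 CPM in Low Control, 9.08 to 11.1 in Low Run, 9.14 to 10.1 in High Control and 4.76 to 8.19 in High Run. Per kilobase of the union of exons, Mdh1, the cytosolic malate dehydrogenase, had a level of 260 ± 45.5, beside 221 ± 29.1 for Mdh2. This order depends on the length, since Mdh2 was at 491 per kilobase of its longest transcript, a value not computed for Mdh1. Before division by length Mdh2 was above Mdh1 in every mouse, with a log2 CPM ratio of 0.08 to 0.63. On the union of exons, the isoenzymes Idh1 (11.3 ± 2.10), Aco1 (4.38 ± 0.569) and Ogdhl (1.15 ± 0.397) were low.

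The genes whose log2 CPM over the 15 mice was most like the mean of the 9 members were Uqcrc2 (Pearson r = 0.974), Atp5a1 (0.957), Uqcrc1 (0.955), Sucla2 (0.955) and Rhot2 (0.955). Uqcrc2 and Uqcrc1 are core subunits of complex III, Atp5a1 is a subunit of ATP synthase, Sucla2 belongs to the cycle itself, and Rhot2 is a GTPase of the mitochondrial outer membrane. D62 contributed to these values, and without it r was 0.962 for Uqcrc2 and 0.873 for Uqcrc1. For single members the closest gene was Prdx3 for Suclg1 (r = 0.983), Mgrn1 for Ogdh (0.965), Sod2 for Cs (0.963), Cox5a for Mdh2 (0.962), Ndufv1 for Idh3b (0.959), Uqcrc2 for Idh3a (0.953, and 0.808 without D62), Uqcrc1 for Fh1 (0.943), Gfm2 for Sdha (0.94) and Zfp239 for Dlst (0.927). Zfp239 had a mean level of only 1.37 CPM. Within the list, the highest r was 0.929 between Idh3b and Fh1, and the closest member to Ogdh was Sdha at 0.807. These r describe 15 mice of 4 groups, in which all genes of a library share its depth and scaling, and were not tested.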

How the data were processed

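RNA of powdered gastrocnemius was sequenced as polyA libraries, 1 per mouse. The authors aligned reads to mm10 with STAR 2.7.9a and counted uniquely aligned proper pairs on the sense strand of non-mitochondrial Ensembl genes with featureCounts. The deposited count values are whole numbers without normalization, and a variance-stabilized table was not used. No batch is given by the labels.

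Counts were analyzed with edgeR 4.0.16 in R 4.3.3. Genes were kept by filterByExpr, scaled by TMM and fitted with 1 mean per group over all 15 mice, and the quasi-likelihood F-test was adjusted by Benjamini-Hochberg over 16920 genes (FDR 0.1). CPM use TMM library sizes, and log2 CPM a prior count of 2. Levels per length used GENCODE M21, and motifs the RefSeq promoters of GRCm38.p6. In simulated counts for High Run against High Control (16558 genes), edgeR recovered 7 of 66 genes changed by a log2 fold change of 0.5. It recovered 50 of 66 at 1 and 64 of 66 at 2, with 11 false calls. DESeq2 made 53 false calls there and 13 for Low Run against Low Control, where no gene was changed. Genes were drawn independently with the same spread in every group. The simulation thus lacks the unequal spreads and shifts of whole mice seen here and does not give the power in these data. Alternatives were DESeq2 1.42.0, RLE scaling, no filter, voom with sample weights (limma 3.58.1), length and GC offsets (loess span 0.3), 2 groups only, TPM, the longest transcript and leaving out mice.

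The members and lists were chosen with earlier results of these data known. Named genes were the 9 members, 14 other cycle genes, up to 3 genes per comparison with the smallest p from 3 further lists, and the 5 genes most like the members' mean. Overlap counts without D53, D57, D62 or D9 and D62, spreads without D9, D53, D57, D62 or D68, and likeness without D62, were added after seeing the data.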

Additional observations from a re-analysis of the deposited data

Results flagged for a closer look

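Of the 27 sets of 4 mice examined (9 members in 3 groups, High Control with 3 mice not being examined), 4 had a mouse far from the others by Dixon's test. Chance gives about 1 in 20 for a single set. The sets share mice and the members vary together (r = 0.908 between Cs and Sdha), so the 4 cannot be read against that rate. Cs was 768.9 CPM in D9, below the other Low Control mice. In Low Run, Cs was 675.5 CPM and Sdha 729.5 CPM in D57, each below the other 3 mice, and Fh1 was 308.3 CPM in D68, above them.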

How the results depend on the processing

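No member was called at an FDR of 0.1 under any setting, and the smallest adjusted p was 0.273 with voom (0.32 when a mouse was left out). The medians over the members kept their sign under every setting. Genes called over the whole table moved from 0 with DESeq2 to 10 in Low and 15 in High mice. Without a filter they were 86 in Low, 19 in High, 4 for the interaction and 6 for High Run against Low Run, and with voom 45 in High mice, and the cause was not tested. Signs turned as follows, on values near 0. In Low mice Cs was 0.0343 with length and GC offsets, Sdha 0.0218 with voom, and Idh3a -0.0179 without D9 and D62. In High mice Dlst was 0.0065 with voom and 0.0053 without D9 and D62. The interaction of Ogdh was -0.0684 with length and GC offsets. In High Run against Low Run, voom gave 0.0670 for Cs, 0.0182 for Dlst and 0.0702 for Sdha, and leaving out D9 and D62 gave 0.0468, 0.0344 and 0.0846.

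When single mice were left out, the range in Low mice was -0.0611 to 0.0796 for Cs, -0.0179 to 0.13 for Idh3a and -0.0697 to 0.0649 for Sdha, and in High mice -0.15 to 0.0051 for Dlst. The interaction of Ogdh ran from -0.081 to 0.128 and its High Control against Low Control difference from -0.021 to 0.0574. For High Run against Low Run the range was -0.146 to 0.0465 for Cs, -0.0603 to 0.148 for Ogdh, -0.139 to 0.034 for Dlst and -0.107 to 0.0842 for Sdha. With the longest transcript as the length, the share of the summed level was 13.2% for Cs, 12.3% for Idh3a, 11.3% for Ogdh, 4.57% for Dlst, 14.9% for Sdha, 4.44% for Fh1 and 23.1% for Mdh2. No paired analysis was possible because mouse numbers are not shared between groups. Each member had at least 5186 counts in every mouse.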

Other observations

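Genes that feed and surround the cycle were also below the threshold. Of 14 genes of pyruvate entry, 11 had a negative log2 fold change with running in High mice and 6 in Low mice, and 0 of 14 were called in any of the 5 comparisons by edgeR. Pcx, pyruvate carboxylase, which makes oxaloacetate from pyruvate, had a log2 fold change of -0.49 ± 0.16 in Low mice (unadjusted p = 0.00727, adjusted p = 0.358) and -0.39 ± 0.17 in High mice (unadjusted p = 0.0347, adjusted p = 0.956). Pdp2, a phosphatase that activates pyruvate dehydrogenase, was at -0.79 ± 0.34 in Low and -0.81 ± 0.36 in High mice (adjusted p = 0.359 and 0.956). Of 4 assembly factors of succinate dehydrogenase, 4 had a positive log2 fold change in Low mice. Among them Sdhaf4 (0.64 ± 0.26) and Sdhaf1 (0.42 ± 0.17) were higher without overlap (2 of 4, beside 3.35% of all genes). Their unadjusted p were 0.0254 and 0.0268, with an adjusted p of 0.358 each by edgeR. The interaction estimate was negative for 4 of 4, from -0.31 to -0.64 (Sdhaf3, unadjusted p = 0.0218, adjusted p = 0.6). Of 13 genes of side reactions and carriers, 0 were called, and Pck2, mitochondrial phosphoenolpyruvate carboxykinase, was at 0.44 ± 0.18 in High mice (unadjusted p = 0.0298, adjusted p = 0.956).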
